A study of Mus musculus with 8 samples.

Results

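The SLC25 family, the mitochondrial carriers, was examined in intestinal organoid RNA-seq from 2 experiments. Members were taken by symbol: every mouse gene named Slc25a followed by a number in the count table of the genotype experiment, and every protein-coding human gene named in the same way in the tables of the knockdown experiment. The rule found 47 of 21757 listed genes in the genotype table and 48 of 60010 in the knockdown tables, and it used no measured value. A filter on low counts left 38 of the 47 and 42 of the 48 for testing.

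The genotype experiment compared WT organoids from mouse small intestine with Ctnnb1-ex3 organoids, which carry an altered Ctnnb1 gene (beta-catenin, the nuclear effector of Wnt signalling). Medium for WT organoids held Wnt3a, R-spondin1, Noggin and EGF, whereas Ctnnb1-ex3 organoids received Noggin and EGF alone, so that genotype and medium cannot be told apart. The knockdown experiment compared organoids with a scrambled short hairpin RNA (sh-scramble) and organoids with a hairpin against Prmt1 (sh-Prmt1), an arginine methyltransferase. Its labels give mouse organoids, but all gene identifiers in its tables are human, and for these cultures the sources used here give neither genotype nor medium. Each group had 2 libraries, and the labels do not say whether they came from separate animals or cultures, nor how the Ctnnb1-ex3 allele was switched on or whether a line was 1 clone. A p-value here therefore reflects only how far such libraries differ, possibly for technical reasons.

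Mitochondrial carriers are small membrane proteins, nearly all of the inner mitochondrial membrane, that exchange nucleotides, phosphate, carboxylates, amino acids, cofactors and metal ions between the matrix and the cytosol. They are encoded in the nucleus, made in the cytosol and imported through the TOM and TIM22 complexes. In the gut epithelium, stem cells and absorptive enterocytes differ in their use of mitochondrial metabolism, and enterocytes also run parts of amino acid and fatty acid metabolism that depend on specific carriers.

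Total counts per library ran from 2951887 to 6015933 in the genotype experiment and from 39603994 to 53188518 in the knockdown experiment. On the scale used here, library-size-scaled counts after TMM scaling (CPM), 3 counts were worth 0.451 to 1.14 CPM in the first and 0.0528 to 0.0809 CPM in the second. The knockdown was visible in its target: PRMT1 had 1373 and 1451 counts with sh-scramble and 128 and 190 with sh-Prmt1 (log2 fold change -3.48, SE 0.12, edgeR adjusted p = 1.00e-06). In the genotype experiment Ctnnb1 did not pass the test (log2 fold change -0.59, SE 0.21, adjusted p = 0.0504), and a gene-level count does not show whether an exon is missing from its transcripts. Prmt1 itself was higher in Ctnnb1-ex3 organoids, at 10.1 and 11.4 CPM in WT and 51.2 and 32.4 CPM in Ctnnb1-ex3 (log2 fold change 1.97, SE 0.33, adjusted p = 0.00287). Both tissues were epithelial by marker: the 4 epithelial markers summed to 1097 to 2091 CPM in the genotype libraries and 2222 to 2752 CPM in the knockdown libraries.

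The windows before the start sites of the members with the largest called changes in the genotype experiment are shown first, as the members whose folds were widest there. Each window covers 200 bases, from 250 to 51 bases before the RefSeq start, on the gene's own strand of GRCm38.p6. Capitals mark CCAAT or its reverse complement ATTGG, a promoter element bound by NF-Y, and GGGCGG or its reverse complement CCGCCC, bound by Sp factors. The window of Slc25a45 is chr19:5877572-5877771 (plus strand), that of Slc25a48 is chr13:56438105-56438304 (plus strand) and that of Slc25a34 is chr4:141623885-141624084 (minus strand). Slc25a29 and Slc25a47 lie head to head on chromosome 12, and the 162 bases between the annotated genes, chr12:108835884-108836045, are given on the minus strand, which is that of Slc25a29.
Slc25a45: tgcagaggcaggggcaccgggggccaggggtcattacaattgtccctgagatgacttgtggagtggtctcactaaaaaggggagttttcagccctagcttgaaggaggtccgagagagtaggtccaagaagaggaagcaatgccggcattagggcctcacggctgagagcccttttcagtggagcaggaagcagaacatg
Slc25a48: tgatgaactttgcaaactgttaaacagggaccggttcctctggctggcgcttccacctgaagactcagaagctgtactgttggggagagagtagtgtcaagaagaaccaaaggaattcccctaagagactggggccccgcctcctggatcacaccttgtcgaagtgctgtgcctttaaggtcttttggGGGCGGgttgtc
Slc25a34: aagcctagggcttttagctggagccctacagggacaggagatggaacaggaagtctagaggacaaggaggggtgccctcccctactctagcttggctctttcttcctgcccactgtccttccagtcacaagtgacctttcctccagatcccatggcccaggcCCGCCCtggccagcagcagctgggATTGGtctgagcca
Slc25a29-Slc25a47: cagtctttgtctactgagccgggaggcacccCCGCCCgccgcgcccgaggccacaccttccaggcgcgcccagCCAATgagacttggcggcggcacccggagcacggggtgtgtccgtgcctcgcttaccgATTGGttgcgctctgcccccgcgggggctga

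None of the 4 searched motifs was found in the window of Slc25a45, a window that says nothing of sites elsewhere in the gene. Windows were present for 36 of the mouse members. CCAAT, on either strand, was in 5 of 6 windows of members called higher (83.3%) and in 2 of 12 windows of members called lower (16.7%), and in 6 of 11 of members not called (54.5%), beside 28.9% of windows of 27025 RefSeq genes and 30.6% of protein-coding ones. CCAAT was in 1 of 7 windows of members under the filter (14.3%). The windows of Slc25a29 and Slc25a47, both among the 6, overlap and share bases. These 2 and Slc25a48, also among the 6, entered the test only through Ctnnb1-ex3. Slc25a34 and Slc25a45, among the 12, entered it only through WT. A link between a motif and the direction of change was not tested. GGGCGG was in 3 of 6 windows of members called higher, 6 of 12 of those called lower and 6 of 11 of those not called (31.7% of protein-coding genes). CTTTGAA or CTTTGAT, the form bound by TCF/LEF factors, the DNA-binding partners of beta-catenin, was in 0 of 6 windows of members called higher and 1 of 12 of those called lower, that of Slc25a11 (6.08% of protein-coding genes). CACGTG, the E-box bound by MYC, was in 0 of 6 and 1 of 12 (4.79% of protein-coding genes). Among members not called, CACGTG was in 2 of 11 windows (18.2%), and CTTTGAA or CTTTGAT in 1 of 11 (9.09%). These matches describe letters in short windows and show no binding.

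In Ctnnb1-ex3 organoids the carriers moved in both directions, with more of them lower than higher. Of the 38 members tested, 8 were called higher and 16 lower (63.2% called), where 40.8% of all genes tested were called; a call is an edgeR adjusted p under 0.05. By direction, 21.1% of the members were higher beside 20.3% of all genes, and 42.1% were lower beside 20.5%. The median log2 fold change of the members was -0.36 beside 0.02 for all genes. The counts of calls changed with the scaling and when a WT library was left out, but the members' median stayed below that of all genes. Upper-quartile scaling gave 9 members higher and 10 lower, beside 3725 and 1752 of all 12976 genes tested. Its median log2 fold changes were -0.13 for the members and 0.26 for all genes. These medians were -0.41 and 0.04 without WT replicate 1, and -0.47 and -0.00 without WT replicate 2. In the authors' deposited table all 24 called members had the same direction and 18 had an adjusted p under 0.05, the other 6 being Slc25a5 (0.0735), Slc25a12 (0.173), Slc25a13 (0.0705), Slc25a16 (0.098), Slc25a34 (0.219) and Slc25a47 (0.0581). That table rests on the same libraries and is no independent support, and the share over all called genes is not given here. The members called lower included the ornithine carrier Slc25a15, the carnitine carrier Slc25a20, the iron carrier Slc25a37, the ATP-Mg/phosphate carrier Slc25a24 and, by the widest margin, Slc25a45. Those called higher included Slc25a48, Slc25a29, Slc25a27, Slc25a23, Slc25a47 and Slc25a33. The summed level of all listed members was 4187 and 4494 CPM in WT and 2614 and 2938 CPM in Ctnnb1-ex3. Slc25a27, Slc25a29, Slc25a47 and Slc25a48 entered the test only through Ctnnb1-ex3, and Slc25a34 and Slc25a45 only through WT, since the other group did not have 2 libraries above the filter's minimum, so the counts of calls describe the members that passed the filter, not the whole family. In a bulk sample, fewer cells of a type and less RNA per cell cannot be told apart.

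Cell type markers moved with the same comparison. All 5 enterocyte markers were lower (median log2 fold change -2.62; summed level 1965 and 2464 CPM in WT, 512 and 472 CPM in Ctnnb1-ex3) and all 5 stem cell markers were higher (median 3.40; 309 and 332 CPM in WT, 987 and 1159 CPM in Ctnnb1-ex3). The 8 immune markers summed to 7.6 and 5.71 CPM in WT, 3.01 CPM in Ctnnb1-ex3 replicate 1 and 60.9 CPM in Ctnnb1-ex3 replicate 2, which stood apart. The 6 stromal markers summed to 22.3 and 7.99 CPM in WT and 31.7 and 28.5 CPM in Ctnnb1-ex3, and the 3 endothelial markers to at most 2.76 CPM in any library. The part of these cell types in the carrier values was not tested.

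**Figure D1:**
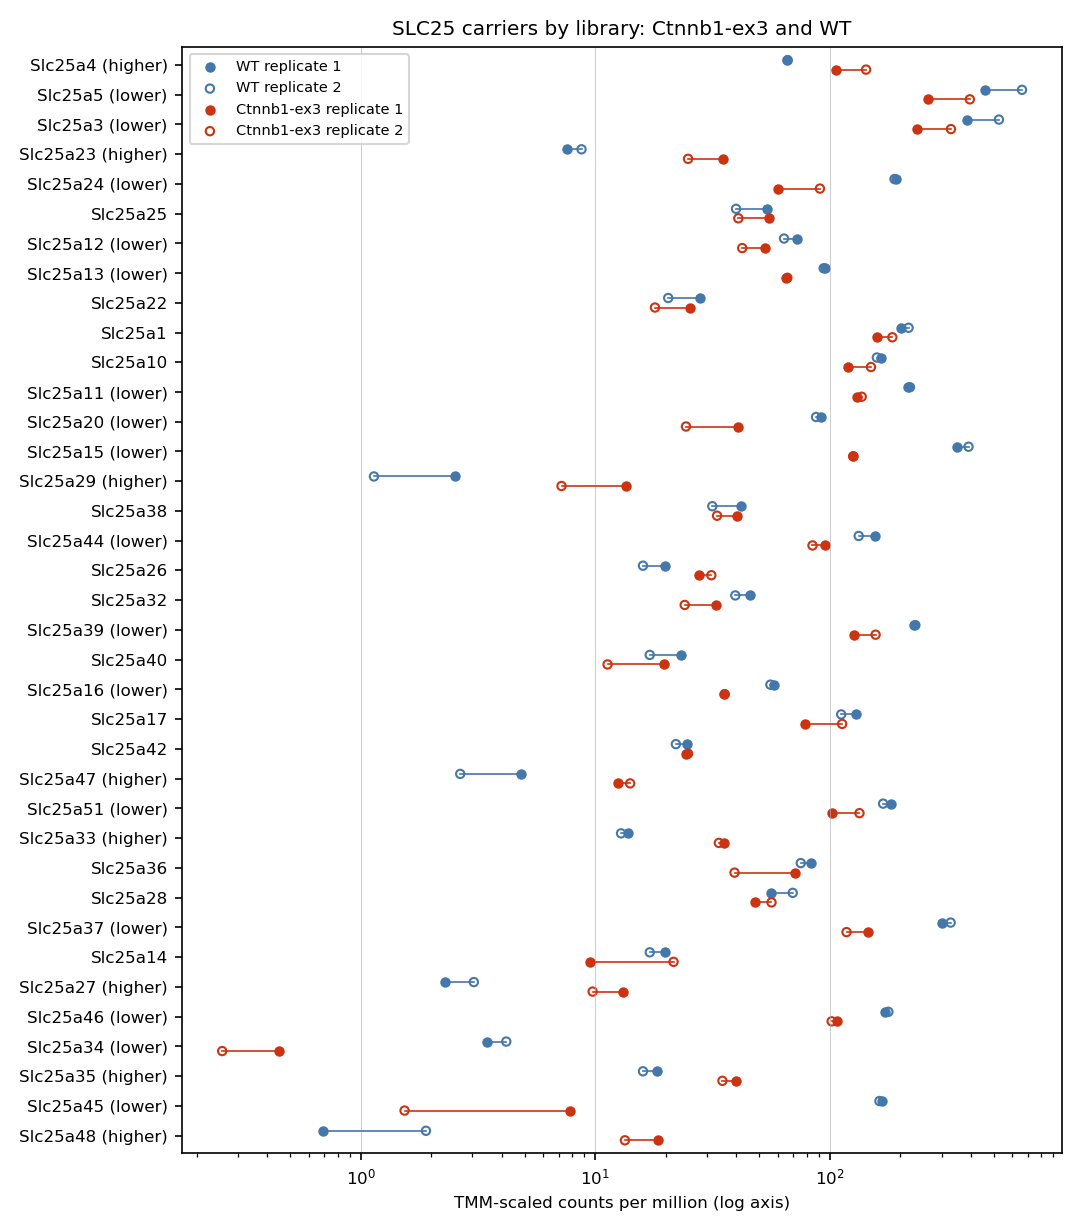
Levels of the SLC25 members tested and described in the 4 genotype libraries, 1 row per member, as TMM-scaled CPM on a log axis; filled and open points are replicates 1 and 2, a line joins the libraries of a group, and a called direction stands in brackets. Slc25a45 has its WT points at 167 and 163 CPM and its Ctnnb1-ex3 points at 7.82 and 1.54 CPM, and Slc25a48 shows the opposite order.

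The ADP/ATP carriers, which export ATP from the matrix in exchange for ADP, moved in opposite directions. Slc25a4 (ANT1; chr8:46206797-46211284, minus strand) was at 65.8 and 66.2 CPM in WT and 106 and 143 CPM in Ctnnb1-ex3, and was called higher (log2 fold change 0.90, SE 0.17, adjusted p = 0.00485). Slc25a5 (ANT2, chrX:36795651-36798807, plus strand) was at 461 and 661 CPM in WT and 263 and 396 CPM in Ctnnb1-ex3 (log2 fold change -0.77, SE 0.26, adjusted p = 0.047). Per length of all annotated exons, it was the most abundant carrier in both groups. The phosphate carrier Slc25a3, which supplies phosphate for ATP synthesis, was at 386 and 527 CPM in WT and 235 and 329 CPM in Ctnnb1-ex3 (log2 fold change -0.69, SE 0.23, adjusted p = 0.0458). For Slc25a5 and Slc25a3 the groups did not overlap, but the lower WT library lay closer to the higher Ctnnb1-ex3 library than to the other WT library. Without WT replicate 2 the adjusted p was 0.25 for Slc25a5 and 0.27 for Slc25a3, and without Ctnnb1-ex3 replicate 1 it was 0.185 and 0.166. Both calls were also lost with upper-quartile scaling, with an offset following mean abundance and with 1 taken from every count, and that of Slc25a3 without WT replicate 1 (0.0511).

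Among the calcium-regulated ATP-Mg/phosphate carriers, which set the adenine nucleotide content of the matrix, Slc25a23 rose and Slc25a24 fell. Slc25a23 (chr17:57043711-57059863, minus strand) was at 7.6 and 8.75 CPM in WT and 35 and 24.9 CPM in Ctnnb1-ex3 (log2 fold change 1.89, SE 0.35, adjusted p = 0.00434). Slc25a24 (chr3:109123149-109168457, plus strand) was at 192 and 189 CPM in WT and 60.4 and 90.9 CPM in Ctnnb1-ex3 (log2 fold change -1.34, SE 0.20, adjusted p = 0.00166). Slc25a25 lay between 39.9 and 54.9 CPM in the 4 libraries, its groups overlapped, and its log2 fold change was 0.03 (SE 0.23, adjusted p = 0.939). Slc25a41 stayed under the filter with 1 or 2 counts per library.

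The aspartate/glutamate carriers of the malate-aspartate shuttle, which brings reducing equivalents into mitochondria, were both called lower. Slc25a12 (aralar) was at 72.5 and 63.9 CPM in WT and 52.8 and 42.4 CPM in Ctnnb1-ex3 (log2 fold change -0.52, SE 0.18, adjusted p = 0.0498). Slc25a13 (citrin) was at 95.8 and 94.3 CPM in WT and 64.9 and 66 CPM in Ctnnb1-ex3 (log2 fold change -0.54, SE 0.13, adjusted p = 0.0132). The oxoglutarate/malate carrier Slc25a11, the other arm of the shuttle, was at 216 and 220 CPM in WT and 131 and 137 CPM in Ctnnb1-ex3 (log2 fold change -0.70, SE 0.14, adjusted p = 0.00622). All 3 shuttle carriers were thus lower in both Ctnnb1-ex3 libraries than in either WT library. With 2 libraries against 2, a gene without change separates fully with a probability of 0.333, and the share over all genes is not given here. Without WT replicate 1 or WT replicate 2 the adjusted p was 0.288 and 0.151 for Slc25a12, and 0.119 and 0.136 for Slc25a13. Both calls were also lost in DESeq2, with upper-quartile scaling and with no filter, that of Slc25a12 with 1 taken from every count, and that of Slc25a11 with the offset following mean abundance (0.059).

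The citrate carrier Slc25a1, which exports citrate for lipid synthesis, was at 202 and 217 CPM in WT and 159 and 185 CPM in Ctnnb1-ex3 and did not pass the test (log2 fold change -0.29, adjusted p = 0.173). The dicarboxylate carrier Slc25a10 did not pass either (-0.27, adjusted p = 0.197; 0.022 without Ctnnb1-ex3 replicate 2), nor did the glutamate carrier Slc25a22 (-0.15, adjusted p = 0.726). Slc25a18 and Slc25a21 had at most 6 counts in any library.

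Slc25a20, which brings acylcarnitines into the matrix for fatty acid oxidation, fell. It was at 92.3 and 87.5 CPM in WT and 40.7 and 24.4 CPM in Ctnnb1-ex3, a 2.71-fold lower level (log2 fold change -1.44, SE 0.23, adjusted p = 0.00256). It lies at chr9:108662088-108684641 on the plus strand. Slc25a15, which exchanges ornithine for citrulline in the urea cycle and in intestinal citrulline production, fell as well, from 350 and 391 CPM in WT to 126 and 126 CPM in Ctnnb1-ex3 (2.95-fold lower; log2 fold change -1.56, SE 0.16, adjusted p = 0.000403). It lies at chr8:22375551-22398597 on the minus strand.

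Other amino acid carriers did not move as a block. Slc25a29, a carrier of basic amino acids, was at 2.53 and 1.14 CPM in WT and 13.5 and 7.19 CPM in Ctnnb1-ex3 (log2 fold change 2.42, SE 0.61, adjusted p = 0.0156), from 14 counts in all in WT and 118 in Ctnnb1-ex3, a ratio of 5.57 with an exact 95% interval of 3.19 to 10.5 that covers counting error only. Slc25a44, which carries branched-chain amino acids, was at 156 and 133 CPM in WT and 95.6 and 84.5 CPM in Ctnnb1-ex3 (log2 fold change -0.68, SE 0.15, adjusted p = 0.00812). The glycine carrier Slc25a38, needed for haem synthesis, had overlapping groups between 31.6 and 41.7 CPM (adjusted p = 0.998). The call of Slc25a29 was lost with the offset following mean abundance (log2 fold change 1.71, adjusted p = 0.0518) and without WT replicate 1 (3.13, 0.0554) or WT replicate 2 (2.02, 0.15), and that of Slc25a44 without WT replicate 1 (0.0964).

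The gene next to Slc25a29, Slc25a47, a carrier known from liver, rose with it. Slc25a47 (chr12:108836046-108856815, plus strand) was at 4.83 and 2.66 CPM in WT and 12.5 and 14.1 CPM in Ctnnb1-ex3 (log2 fold change 1.78, SE 0.49, adjusted p = 0.0225), and Slc25a29 (chr12:108825873-108835883, minus strand) starts 162 bases away on the other strand. The other members within 50000 bases of each other were Slc25a41 and Slc25a23, Slc25a54 and Slc25a24, and Slc25a43 and Slc25a5, and in each of these pairs the first was under the filter. The call of Slc25a47 was lost with the offset following mean abundance (1.20, adjusted p = 0.0793) and without WT replicate 1 (2.28, 0.0672) or WT replicate 2 (1.44, 0.215).

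The cofactor carriers described next were lower or did not pass the test. Slc25a47, grouped with Slc25a51 as an NAD carrier, was called higher, as given above. Slc25a39, which imports glutathione, was at 230 and 232 CPM in WT and 127 and 157 CPM in Ctnnb1-ex3 (log2 fold change -0.71, SE 0.16, adjusted p = 0.0108). Slc25a51, which imports NAD, was at 182 and 169 CPM in WT and 102 and 134 CPM in Ctnnb1-ex3 (log2 fold change -0.58, SE 0.17, adjusted p = 0.0279), and Slc25a16, linked to coenzyme A, was at 57.8 and 55.9 CPM and 35.6 and 35.7 CPM (log2 fold change -0.67, SE 0.18, adjusted p = 0.0201). In none of these 3 did the groups overlap, a separation whose share over all genes is not given here. Slc25a26, which imports S-adenosylmethionine, the methyl donor of methyltransferases such as PRMT1, was at 19.8 and 16 CPM in WT and 27.7 and 31.3 CPM in Ctnnb1-ex3 and did not pass (log2 fold change 0.71, SE 0.29, adjusted p = 0.0813). With upper-quartile scaling it was called (0.94, adjusted p = 0.0326), as it was without Ctnnb1-ex3 replicate 1 (0.0291). The folate carrier Slc25a32 (-0.57, adjusted p = 0.0977), the glutathione carrier's paralogue Slc25a40 (-0.37, 0.46), the peroxisomal Slc25a17 (-0.35, 0.168) and the coenzyme A carrier Slc25a42 (0.08, 0.841) did not pass. Of these, Slc25a32 and Slc25a40 were called without Ctnnb1-ex3 replicate 1 (adjusted p of 0.00506 and 0.0459) and Slc25a17 without Ctnnb1-ex3 replicate 2 (0.000451). The calls of Slc25a16 and Slc25a51 were lost with upper-quartile scaling and without WT replicate 1 (0.127 and 0.153) or WT replicate 2 (0.14 and 0.0767), and that of Slc25a39 without WT replicate 1 (0.0609). The offset following mean abundance also ended those of Slc25a39 and Slc25a51, and DESeq2 and no filter that of Slc25a16.

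Pyrimidine nucleotide carriers serve mitochondrial DNA and RNA synthesis. Slc25a33 (chr4:149744036-149774277, minus strand) rose from 13.8 and 12.9 CPM in WT to 35.3 and 33.7 CPM in Ctnnb1-ex3 (log2 fold change 1.36, SE 0.28, adjusted p = 0.0066), and its libraries were close within each group. Slc25a36 was at 83.1 and 75.3 CPM in WT and 71.2 and 39.3 CPM in Ctnnb1-ex3, and did not pass (log2 fold change -0.50, adjusted p = 0.15). Leaving out Ctnnb1-ex3 replicate 1 brought it to -1.03 (adjusted p = 1.10e-08). Of the mitoferrins, which import iron, Slc25a37 (chr14:69241848-69285112, minus strand) fell from 301 and 328 CPM to 146 and 118 CPM (log2 fold change -1.25, SE 0.17, adjusted p = 0.00129), while Slc25a28 had overlapping groups between 48.1 and 69.6 CPM (log2 fold change -0.27, adjusted p = 0.273).

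Slc25a46, an outer membrane member that acts in mitochondrial dynamics and not as a known transporter, was at 173 and 178 CPM in WT and 108 and 102 CPM in Ctnnb1-ex3 (log2 fold change -0.74, SE 0.13, adjusted p = 0.00403). Of the members related to uncoupling proteins, Slc25a27 (UCP4; chr17:43641891-43667214, minus strand), best known from neurons, was at 2.3 and 3.04 CPM in WT and 13.1 and 9.76 CPM in Ctnnb1-ex3 (log2 fold change 2.11, SE 0.51, adjusted p = 0.0127). Its call was lost without WT replicate 1 (1.87, adjusted p = 0.147) or WT replicate 2 (2.29, 0.088). Slc25a14 had overlapping groups (-0.28, adjusted p = 0.64) and was called without Ctnnb1-ex3 replicate 2 (-0.97, adjusted p = 0.0293). Slc25a30 was under the filter, with WT counts of 10 and 7 and Ctnnb1-ex3 counts of 1 and 2.

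The 3 members with the largest fold changes were among those whose substrates are less settled or recently assigned. Slc25a45 (chr19:5877808-5885878, plus strand) was at 167 and 163 CPM in WT and 7.82 and 1.54 CPM in Ctnnb1-ex3, from 726, 429, 52 and 6 counts (31.1-fold lower; log2 fold change -4.96, SE 0.38, adjusted p = 0.000147). Its Ctnnb1-ex3 libraries were both far below WT but differed from each other, and without Ctnnb1-ex3 replicate 1 the log2 fold change was -6.73. Slc25a48 (chr13:56438355-56474239, plus strand), linked to mitochondrial choline import, was counted 3 and 5 times in WT against 124 and 52 times in Ctnnb1-ex3, or 0.691 and 1.9 CPM and 18.6 and 13.4 CPM (log2 fold change 3.72, SE 0.61, adjusted p = 0.00275). The ratio of its pooled counts was 14.6, with an exact 95% interval of 7.22 to 34.2 for counting error, and its log2 fold change ran from 3.03 without WT replicate 1 to 4.48 without WT replicate 2.

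Slc25a34 (chr4:141618824-141623821, minus strand) was counted 15 and 11 times in WT against 3 and 1 in Ctnnb1-ex3 (log2 fold change -3.25, SE 0.66, adjusted p = 0.00667), and its pooled counts gave a 9.83-fold lower level with an exact 95% interval of 3.41 to 38.7. Its log2 fold change was -4.05 with 1 taken from every count and -4.36 with the offset following mean abundance, so the size of the change is poorly fixed. Its close relative Slc25a35 (chr11:68968131-68974365, plus strand) moved the other way, from 18.4 and 16 CPM in WT to 40 and 34.9 CPM in Ctnnb1-ex3 (log2 fold change 1.12, SE 0.26, adjusted p = 0.0122). Of the exon bases of Slc25a35, 1151 (31.3%) are shared with Rangrf on the opposite strand, and without strand in the counts the reads of these genes cannot be told apart. The same limit holds for smaller opposite-strand shares in other members, among them Slc25a33 (14.9%, Gm13068), Slc25a11 (8.92%, Rnf167) and Slc25a46 (7.06%, B930094E09Rik). The call of Slc25a34 was lost in DESeq2 (0.0534) and without WT replicate 1 (0.219) or WT replicate 2 (0.209), and that of Slc25a35 without WT replicate 2 (0.0996). Slc25a43, with WT counts of 10 and 4 and Ctnnb1-ex3 counts of 1 and 23, was under the filter. Slc25a2, Slc25a31, Slc25a53 and Slc25a54 were under it too, with at most 15 counts in any library.

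For a ranking per length, the length of a gene was taken as all its annotated exon bases together. It was 1646 bases for Slc25a5 and 5550 bases for Slc25a3. The order depends on this choice, and lengths of the transcripts present were not used. Slc25a5 led in WT at 341 ± 85.6 CPM per kilobase (SD, n = 2), clear of Slc25a11 at 103 ± 1.51 and Slc25a1 at 96.9 ± 4.92. The latter 2 did not differ from each other beyond their spread. Slc25a39 (83.7), Slc25a3 (82.3 ± 18), Slc25a15 (65.9) and Slc25a45 (59.8) followed. In Ctnnb1-ex3 Slc25a5 led at 200 ± 57 CPM per kilobase, followed by Slc25a1 at 79.4 ± 8.53 and Slc25a11 at 63.1 ± 1.92. Slc25a4, Slc25a39 and Slc25a3, at 52.7, 51.4 and 50.8 CPM per kilobase, could not be ordered beyond their spread.

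After Prmt1 knockdown the carriers also moved both ways. Of the 42 members tested, 14 were called higher and 10 lower (57.1% called), where 41% of all genes tested were called. By direction, 33.3% of the members were higher beside 20.6% of all genes, and 23.8% were lower beside 20.4%. The median log2 fold change was -0.02 for the members and 0.03 for all genes, and the median level was 21.6 CPM for the members and 6.02 CPM for all genes tested, so that a share of calls is set here against genes of lower level. SLC25A18 entered the test only through sh-Prmt1. In the authors' deposited table, which rests on the same libraries and is no independent support, all 24 called members had the same direction. Of them, 15 had an adjusted p under 0.05, and the share over all called genes is not given here. Among the other 9 were SLC25A36 (log2 fold change -0.11, adjusted p of 0.769) and SLC25A18 (0.26, 0.975). SLC25A43 (adjusted p of 0.224), SLC25A13 (0.138), SLC25A38 (0.0777), SLC25A46 (0.0777), SLC25A11 (0.0696) and SLC25A33 (0.0625) were also among them. The ADP/ATP carrier SLC25A5 fell furthest among the called members, and the glutamate carrier SLC25A22 rose. The summed level of all listed members was 3015 and 3160 CPM with sh-scramble and 2319 and 2247 CPM with sh-Prmt1, and SLC25A5 alone differed by more than that. Genes of the mitochondrial genome took 6.36% and 4.24% of counts with sh-scramble and 5.07% and 5.74% with sh-Prmt1, so those groups overlapped. In the same libraries 2 of 4 tested stem cell markers and 1 of 3 tested enterocyte markers were called lower and none of either higher, stromal markers summed to at most 1.75 CPM and endothelial markers to at most 0.28 CPM. The 8 immune markers summed to 159 and 197 CPM with sh-scramble and 193 and 166 CPM with sh-Prmt1, nearly all of it ITGAE (156 and 194, and 190 and 164 CPM), while PTPRC, the pan-leukocyte marker, had at most 7 counts in a library. The part of other cell types in these values was not tested.

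**Figure D2:**
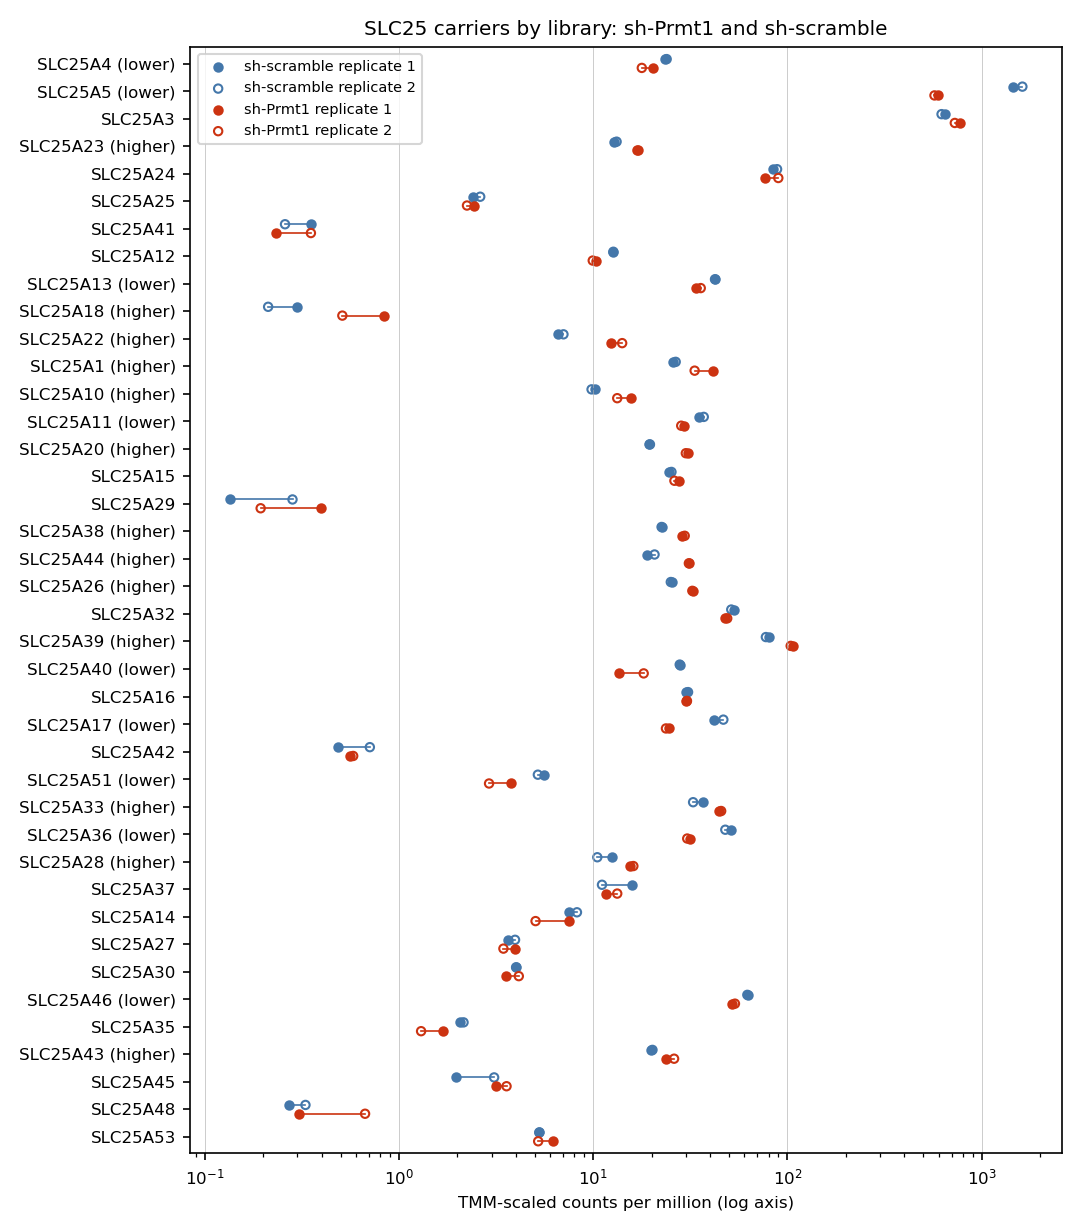
Levels of the SLC25 members tested and described, other than SLC25A6, in the knockdown experiment, 1 row per member, as TMM-scaled CPM on a log axis; filled and open points are replicates 1 and 2, a line joins the libraries of a group, and a called direction stands in brackets. SLC25A5 has its sh-scramble points at 1458 and 1622 CPM and its sh-Prmt1 points at 594 and 572 CPM.

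Among the ADP/ATP carriers, SLC25A5 was at 1458 and 1622 CPM with sh-scramble and 594 and 572 CPM with sh-Prmt1 (2.64-fold lower; log2 fold change -1.40, SE 0.10, adjusted p = 1.18e-05). SLC25A5 has many processed copies in the human genome; its 9 listed pseudogenes together reached 0.193% to 0.47% of its TPM (abundance per length, scaled to one total per library) in a library. SLC25A4 was at 23.4 and 23.9 CPM with sh-scramble and 20.3 and 17.8 CPM with sh-Prmt1 (log2 fold change -0.31, SE 0.10, adjusted p = 0.0328). SLC25A6 (ANT3), which mice lack, had a mean of 70.4 ± 5.75 CPM with sh-scramble and 93.6 ± 6.99 CPM with sh-Prmt1 (SD, n = 2; log2 fold change 0.41, SE 0.10, adjusted p = 0.00723). The carrier that dominates in these cells was thus lower while SLC25A6 was higher. The call of SLC25A4 was lost on log2(TPM + 1) and without sh-scramble replicate 2 (0.0927) or sh-Prmt1 replicate 2 (0.151), and that of SLC25A6 without sh-scramble replicate 1 (0.0669) or sh-Prmt1 replicate 1 (0.0641).

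The phosphate carrier SLC25A3 was at 649 and 622 CPM with sh-scramble and 772 and 728 CPM with sh-Prmt1 and did not pass (log2 fold change 0.24, SE 0.09, adjusted p = 0.0628); with the offset following mean abundance it was called (0.49, adjusted p = 0.00185). Ranked by TPM, which is per length, SLC25A5 led with sh-scramble at 883 ± 95.1 TPM and SLC25A3 followed at 376 ± 5.56. With sh-Prmt1 SLC25A3 stood at 498 ± 46.8 TPM and SLC25A5 at 381 ± 30. SLC25A39 and SLC25A6, at 58.7 and 55.9 TPM with sh-scramble, did not differ beyond their spread.

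Of the ATP-Mg/phosphate carriers, SLC25A23 was at 12.8 and 13.2 CPM with sh-scramble and 17.1 and 16.9 CPM with sh-Prmt1 (log2 fold change 0.39, SE 0.10, adjusted p = 0.0151). SLC25A24 had overlapping groups between 76.8 and 89.8 CPM (log2 fold change -0.05, adjusted p = 0.714). The call of SLC25A23 was lost in DESeq2 (0.123), with no filter (0.0559) and when any 1 library was left out, with adjusted p of 0.125 and 0.0515 without sh-scramble replicates 1 and 2, and 0.0628 and 0.0531 without sh-Prmt1 replicates 1 and 2.

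Glutamate, citrate and dicarboxylate carriers rose, while the malate-aspartate shuttle carriers were lower or not called. SLC25A22, the main mitochondrial glutamate carrier, was at 6.58 and 7.03 CPM with sh-scramble and 12.4 and 14.1 CPM with sh-Prmt1 (log2 fold change 0.96, SE 0.13, adjusted p = 0.000345). SLC25A1 was at 25.9 and 26.6 CPM and 41.5 and 33.3 CPM in the same order (0.51, SE 0.11, adjusted p = 0.00564), and SLC25A10 at 10.2 and 9.81 CPM and 15.7 and 13.3 CPM (0.53, SE 0.13, adjusted p = 0.008). All 3 had every sh-Prmt1 library above every sh-scramble library, a separation whose share over all genes is not given here. SLC25A13 was at 42.3 and 42.4 CPM with sh-scramble and 34 and 35.8 CPM with sh-Prmt1 (log2 fold change -0.28, SE 0.08, adjusted p = 0.0243), and SLC25A11 at 35.1 and 37.1 CPM and 29.2 and 28.4 CPM (-0.33, SE 0.09, adjusted p = 0.0134). SLC25A12 did not pass (-0.32, adjusted p = 0.0543), though it was called with RLE factors (0.0435) and with the offset following mean abundance (0.0258). SLC25A18, the second glutamate carrier, was called higher from 0.297 and 0.212 CPM to 0.841 and 0.511 CPM (1.40, SE 0.50, adjusted p = 0.0477), from 20 counts in all against 65, a call kept only with the RLE and upper-quartile factors among the 11 alternatives (adjusted p of 0.0543 to 0.312 in the others). On log2(TPM + 1) the calls of SLC25A13 and SLC25A11 were lost; SLC25A13 was also lost without sh-scramble replicate 2 (0.0712) or sh-Prmt1 replicate 1 (0.103), SLC25A11 without sh-scramble replicate 2 (0.0689) or sh-Prmt1 replicate 2 (0.0513), and SLC25A10 without sh-Prmt1 replicate 1 (0.0635).

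The carnitine carrier SLC25A20 rose from 19.3 and 19.6 CPM with sh-scramble to 30.8 and 30 CPM with sh-Prmt1 (log2 fold change 0.64, SE 0.09, adjusted p = 0.000365), and the branched-chain amino acid carrier SLC25A44 from 18.9 and 20.7 CPM to 31.3 and 31.1 CPM (0.65, SE 0.09, adjusted p = 0.000428). For both, the libraries of a group lay within 2 CPM of each other. The glycine carrier SLC25A38 was at 22.5 and 22.5 CPM and 28.8 and 29.6 CPM (0.38, SE 0.09, adjusted p = 0.00727). The ornithine carrier SLC25A15, between 24.7 and 27.7 CPM in the 4 libraries, did not pass (0.11, adjusted p = 0.376). The call of SLC25A38 was lost in DESeq2 (0.0618) and without sh-scramble replicate 1 (0.064).

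Among cofactor carriers, the methyl donor carrier SLC25A26 was at 25.5 and 25.1 CPM with sh-scramble and 32.7 and 32.4 CPM with sh-Prmt1 (log2 fold change 0.36, SE 0.09, adjusted p = 0.00778). The paired glutathione carriers moved apart: SLC25A39 was at 80.4 and 77.5 CPM and 107 and 104 CPM (0.42, SE 0.08, adjusted p = 0.00276), and SLC25A40 at 27.9 and 27.9 CPM and 13.6 and 18.2 CPM (-0.81, SE 0.13, adjusted p = 0.000948). SLC25A17, the carrier of peroxisomes, was at 42.1 and 46.8 CPM with sh-scramble and 24.7 and 23.7 CPM with sh-Prmt1 (-0.88, SE 0.09, adjusted p = 7.98e-05). Of these 4, only the call of SLC25A26 was lost under any alternative, in DESeq2 (0.0617) and without sh-scramble replicate 1 (0.0546) or 2 (0.0512). The NAD carrier SLC25A51 was at 5.61 and 5.19 CPM and 3.78 and 2.91 CPM (-0.70, SE 0.18, adjusted p = 0.0126), and its call was lost on log2(TPM + 1) and without sh-Prmt1 replicate 2 (0.069). The folate carrier SLC25A32, SLC25A16 and SLC25A42 did not pass (adjusted p of 0.323, 0.978 and 0.915).

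The pyrimidine carriers went in opposite directions in CPM. SLC25A33 was at 36.6 and 32.7 CPM with sh-scramble and 44.7 and 45.6 CPM with sh-Prmt1 (log2 fold change 0.38, SE 0.09, adjusted p = 0.00757; 0.0783 without sh-scramble replicate 2). SLC25A36 was at 51.3 and 47.9 CPM with sh-scramble and 31.4 and 30.5 CPM with sh-Prmt1 (-0.68, SE 0.09, adjusted p = 0.000215). The TPM of SLC25A36 did not follow its counts in sh-Prmt1 replicate 1. It was 6.04 and 4.9 TPM with sh-scramble and 7.31 and 3.9 TPM with sh-Prmt1, with means of 5.47 and 5.60 TPM. The effective length of the gene, as deposited by the authors, was 4749 and 5717 bases with sh-scramble and 2961 and 4999 bases with sh-Prmt1. On log2(TPM + 1) the adjusted p of SLC25A36 was 0.973. Of the iron carriers, SLC25A28 was at 12.5 and 10.5 CPM and 15.5 and 16.1 CPM (0.46, SE 0.12, adjusted p = 0.0132), and SLC25A37 overlapped between 11.1 and 15.9 CPM (-0.11, adjusted p = 0.652). The call of SLC25A28 was lost in DESeq2 (0.0607) and without sh-scramble replicate 2 (0.117) or sh-Prmt1 replicate 2 (0.0613).

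SLC25A46, of the outer membrane, was at 62.5 and 62.2 CPM with sh-scramble and 51.7 and 53.7 CPM with sh-Prmt1 (log2 fold change -0.24, SE 0.08, adjusted p = 0.0379), a call that 8 of the 11 alternatives lost. SLC25A43, a less studied member, was at 19.8 and 20.2 CPM and 23.6 and 26.1 CPM (0.31, SE 0.10, adjusted p = 0.0265), and its call was lost in DESeq2 (0.203), with no filter (0.122) and without sh-scramble replicate 1 (0.192), sh-scramble replicate 2 (0.0881) or sh-Prmt1 replicate 2 (0.175). SLC25A45 and SLC25A48, the members with the widest changes in the genotype experiment, did not pass here (log2 fold changes 0.41 and 0.71, adjusted p of 0.204 and 0.324), though SLC25A45 was called without sh-scramble replicate 2 (0.76, adjusted p = 0.0317), and SLC25A48 was at most 0.669 CPM in a library. SLC25A14 did not pass (-0.34, adjusted p = 0.186), but was called without sh-Prmt1 replicate 1 (-0.65, 0.0187). SLC25A25, SLC25A27, SLC25A29, SLC25A30, SLC25A35, SLC25A41 and SLC25A53 did not pass either, with log2 fold changes from -0.50 (SLC25A35) to 0.45 (SLC25A29), and SLC25A2, SLC25A21, SLC25A31, SLC25A34, SLC25A47 and SLC25A52 were under the filter.

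**Figure D3:**
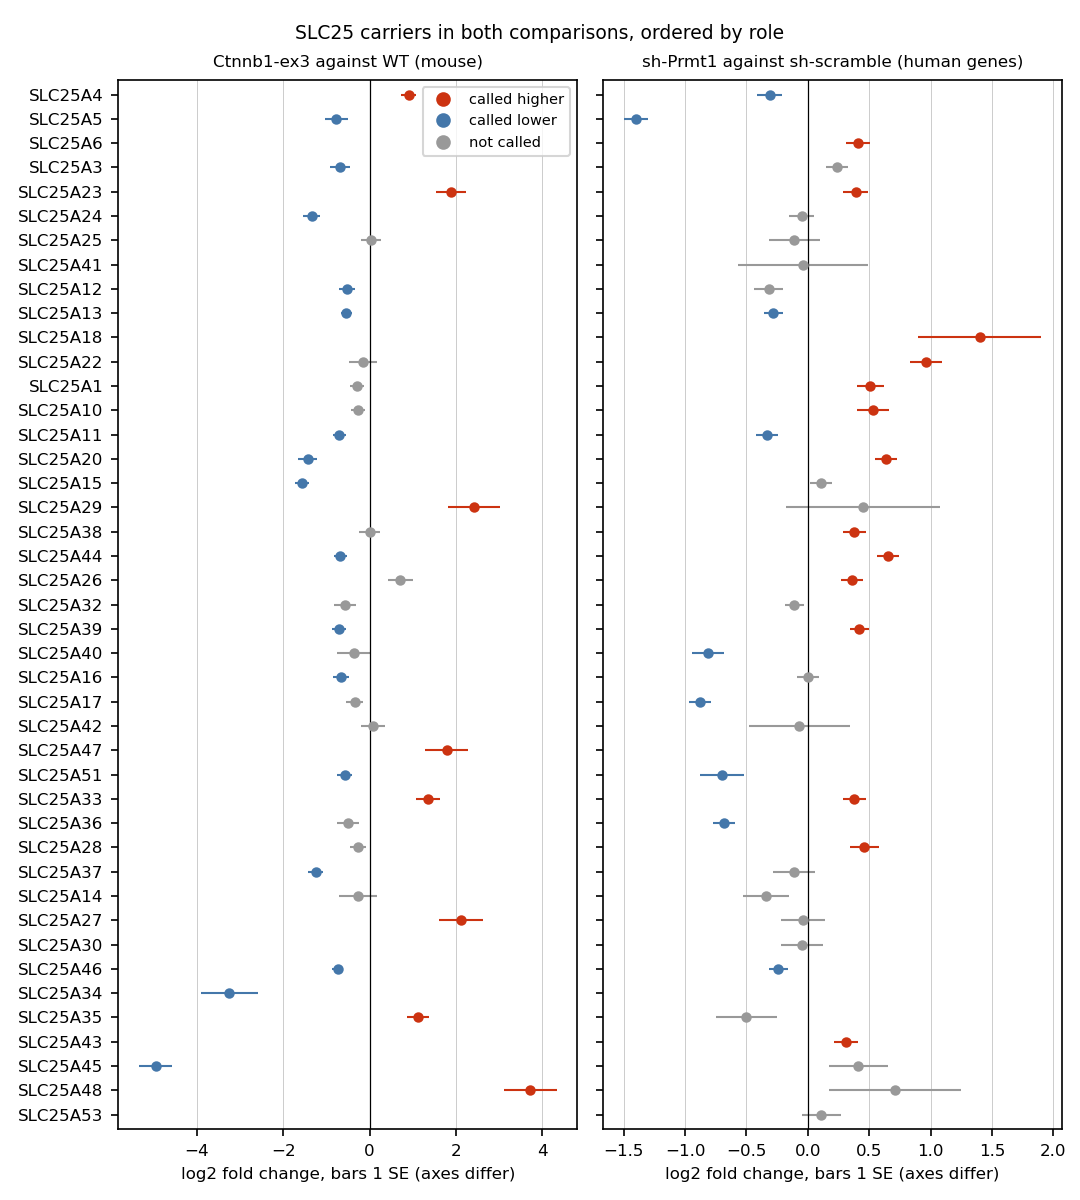
Log2 fold changes of the members tested in either experiment and described, 1 row per member under its human symbol, Ctnnb1-ex3 against WT on the left and sh-Prmt1 against sh-scramble on the right, whose axes differ in range; bars are 1 SE and colours give the call. SLC25A5 is left of 0 in both panels (-0.77 and -1.40), and SLC25A20 is left of 0 in the first and right of it in the second (-1.44 and 0.64).

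Of the 46 symbols listed in both experiments, 36 were tested in both, of which the genotype experiment called 22 and the knockdown 21. Both experiments called 11 members, 50% of the genotype calls and 52.4% of the knockdown calls, and 7 of the 11 had the same direction. Over all 9548 symbols tested in both, matched by name, 2078 were called in both, which is 52.6% of the genotype calls and 41.5% of the knockdown calls, and 47.7% of those had the same direction. The members' shares were not tested against these, and with 11 shared members no statement on a link between the experiments is drawn from them. The 7 shared in direction were Slc25a23 and Slc25a33, higher in both, and Slc25a5, Slc25a11, Slc25a13, Slc25a46 and Slc25a51, lower in both. Of the 11, only Slc25a20, which is not among these 7, kept its call under every alternative in both experiments. The other 4 went in opposite directions: Slc25a20 (-1.44 and 0.64), Slc25a39 (-0.71 and 0.42) and Slc25a44 (-0.68 and 0.65) were lower in Ctnnb1-ex3 and higher with sh-Prmt1, and Slc25a4 (0.90 and -0.31) was the reverse. The experiments differ in species of the listed genes, in culture and in perturbation, share no library, and were fitted apart, so the difference between them was not tested.

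Within pairs of close paralogues, the share of the pair's counts held by one gene is compared below; shares use counts, not levels per length. With 2 libraries against 2, an exact permutation test cannot go below 0.333, so these shares are given without a test. Slc25a4 held 12.5% and 9.11% of the Slc25a4 plus Slc25a5 counts in WT (Wilson 95% intervals 11.2 to 13.9% and 7.9 to 10.5%) and 28.6% and 26.5% in Ctnnb1-ex3 (26.9 to 30.5% and 24.6 to 28.4%). In the knockdown SLC25A4 held 1.52% ± 0.0867 and then 3.16% ± 0.206 of the pair (SD, n = 2). The ADP/ATP pair thus shifted toward Slc25a4 in both experiments, though the gene itself was higher in one and lower in the other.

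Slc25a23 held 3.81% and 4.42% of its counts with Slc25a24 in WT and 36.7% and 21.5% in Ctnnb1-ex3. Slc25a33 held 14.3% and 14.7% of its counts with Slc25a36 in WT and 33.1% and 46.1% in Ctnnb1-ex3, and 41.1% ± 0.757 and 59.3% ± 0.801 with sh-scramble and sh-Prmt1. SLC25A39 held 73.9% ± 0.487 of its counts with SLC25A40 with sh-scramble and 86.9% ± 2.54 with sh-Prmt1, whereas in the genotype experiment that share overlapped between the groups (92% ± 1.65 and 89.9% ± 4.74). The aspartate/glutamate pair did not shift in either: Slc25a12 held 41.7% ± 1.91 of its counts with Slc25a13 in WT and 42% ± 4.05 in Ctnnb1-ex3, and 23% ± 0.0955 and 22.6% ± 1.18 in the knockdown.

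**Figure D4:**
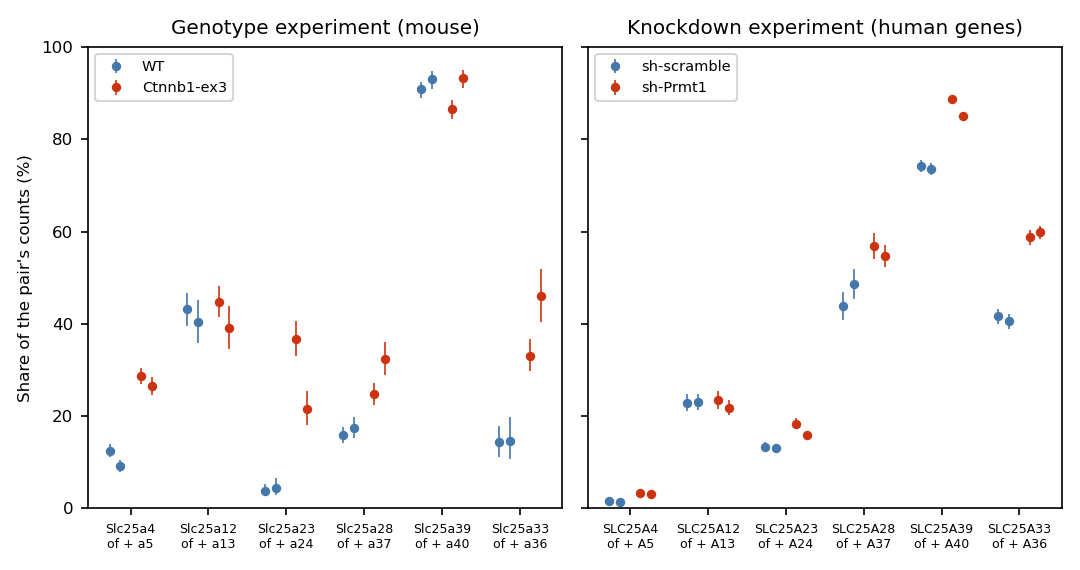
Share of a paralogue pair's counts held by the first-named gene, in percent, 1 point per library, with Wilson 95% intervals as bars; genotype experiment on the left, knockdown on the right. Slc25a4 lies at 9.11% and 12.5% in WT and at 26.5% and 28.6% in Ctnnb1-ex3, while the groups of Slc25a12 overlap in both panels.

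Family members that carry other symbols and other mitochondrial transport genes were set beside the carriers. Over all genes tested, 20.3% were called higher and 20.5% lower in the genotype experiment, and 20.6% and 20.4% in the knockdown. In the genotype experiment 2 of 3 tested family members of other name were called lower, Mtch2 (-1.08, adjusted p = 0.00376), an outer membrane insertase, and Ucp2 (-0.87, adjusted p = 0.0143). Of 16 other carriers and channels, 3 were called higher and 11 lower, with a median log2 fold change of -0.60; Mcu, the pore of the calcium uniporter (-1.0, adjusted p = 0.0047), and Mpc1, of the pyruvate carrier (-0.92, adjusted p = 0.00585), were among the lower and the sideroflexin Sfxn2 (1.44, adjusted p = 0.00178) among the higher. Of 9 genes that import carriers into the inner membrane, edgeR called 0 (3 at an unadjusted p under 0.05) and DESeq2 called 1; their median was -0.34. Of 15 genes that report mitochondrial content or its control, 1 was higher and 4 lower (median -0.29). After the knockdown the same lists gave 2 higher and 0 lower of 3 (UCP2 at 1.20 and MTCH1 at 0.65), 3 higher and 4 lower of 16 (SFXN3 at 1.27, SFXN1 at -0.81), 1 higher and 3 lower of 9 (TIMM13 at 0.53, TIMM8A at -0.46), and 3 higher and 5 lower of 15. In the knockdown, DESeq2 called 1 of the 3 family members of other name.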

How the data were processed

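Polyadenylated RNA of 8 libraries was measured with a custom Smart-seq2 method, per the labels; in its standard form it keeps no strand. The authors deposited whole-number counts per mouse gene (genotype experiment) and, per the file headers, Salmon estimated counts, TPM and effective lengths per gene (knockdown experiment). The authors also deposited comparisons with log2 fold changes and p-values. The submitters' processing notes name mm10, Salmon and DESeq2, without versions or roles; annotation and human build: not given in the sources used here. In the genotype table no count is below 1, so 1 may have been added; no source says so.

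Human X-inactivation and Y-linked genes (227) were left out, and estimated counts were rounded. Each experiment was fitted alone in edgeR 4.0.16 (R 4.3.3) with TMM, filterByExpr and its quasi-likelihood test (two-sided), with Benjamini-Hochberg adjustment over all 12976 or 18444 genes tested. A fold change is relative to the bulk of genes, as TMM assumes. Alternatives used DESeq2 1.42.0, limma 3.58.1 on log2(TPM + 1), other scalings, no filter, 1 taken from every count, a replicate block and leaving out each library. The fits were tested on simulated data.

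Members were named by role, with per-library values for those called in either experiment; 1 member is counted but not reported here. Members, lists and the naming rule were chosen with earlier results of these data known. Mouse locations are from GENCODE M21 on mm10, and sequences from RefSeq and the mm10 genome (GRCm38.p6). Intervals cover counting error only and take the counts as deposited, to which 1 may have been added in the genotype experiment. Coordinates and sequences of the human members, and protein sequences, were not used here.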

Additional observations from a re-analysis of the deposited data

How the results depend on the processing

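No alternative reversed the direction of a called member. Of the 24 members called in each experiment, 10 were called under every one of the 11 alternatives in the genotype experiment (Slc25a4, Slc25a15, Slc25a20, Slc25a23, Slc25a24, Slc25a33, Slc25a37, Slc25a45, Slc25a46 and Slc25a48) and 8 in the knockdown (SLC25A1, SLC25A5, SLC25A17, SLC25A20, SLC25A22, SLC25A39, SLC25A40 and SLC25A44). The share of all called genes that kept their calls in this way is not given here, so these counts show no trait of the carriers. With upper-quartile scaling, which moved the median of all genes to 0.26 and that of the members to -0.13, 10 instead of 16 members and 1752 instead of 2654 genes were called lower in the genotype experiment, and 68% instead of 49.8% of all calls were higher. In the knockdown, DESeq2 called 8 instead of 14 members and 2434 instead of 3793 genes higher, and limma on log2(TPM + 1) called 3 instead of 10 members and 1934 instead of 3765 genes lower, with 65.1% instead of 50.2% of all calls higher. The cause was not tested. Leaving out each library gave 4 to 11 members higher and 8 to 21 lower in the genotype experiment (all genes 1110 to 4008 and 1524 to 3749), and 8 to 10 higher and 5 to 9 lower in the knockdown (all genes 2682 to 3110 and 3120 to 3782). With a replicate block the calls were 8 higher and 18 lower in the genotype experiment, with Slc25a1 (-0.29, adjusted p = 0.0358) and Slc25a36 (-0.55, 0.043) called in addition, and 13 higher and 9 lower in the knockdown (all genes 2981 and 3503, and 3516 and 3570). Across genes, deviations of same-numbered libraries had a Pearson correlation of 0.0706 (Spearman 0.187) in the genotype experiment and -0.0512 (Spearman -0.064) in the knockdown; no label ties the numbers to a shared source, so they were taken as names and the pairing is not established. Depth limits Slc25a34, Slc25a48, Slc25a29 and the members under the filter.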
